A study of Mus musculus with 13 samples.

Results

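The genes described here are 10 heat shock and chaperone genes, taken as the rows of the deposited count table with the symbols Hspa1a, Hspa1b, Dnajb1, Hsph1, Hspb1, Hsp90aa1, Hspa8, Hspa5, Hspd1 and Hspe1. All 10 were found among the 53653 genes of the table, and all 10 passed the filter on low counts that left 22265 genes for testing. RNA was sequenced from 13 libraries of mouse medulloblastoma, a cerebellar tumour, in 3 groups. KO metastases (4 libraries) came from tumours in the spinal cord of animals with SmoM2 overexpression and Kmt2d KO, written as SmoM2-Kmt2dCf/Cf in the protocol, aged 5 to 8 weeks. KO primary tumours (4 libraries) came from the cerebellum of animals with the same genotype and ages. Control primary tumours (5 libraries) came from the cerebellum of animals with SmoM2 overexpression alone, aged 6 to 16 weeks. SmoM2 is an active form of Smoothened, the receptor component that switches on Sonic Hedgehog signalling, and every group carried it. Kmt2d encodes a histone methyltransferase. All tumours were dissociated with papain and sorted for GFP before RNA was made, from pellets of 100000 to 3000000 cells for metastases and 1000000 to 5000000 cells for primary tumours. The driver of recombination is not named in the labels. Whether each library is a different animal is not stated either, so the p-values below measure the spread between libraries.

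Chaperones help other proteins to fold, keep unfolded proteins from clumping and pass damaged ones on for degradation. In the cytosol, HSP70 proteins work with J-domain partners that bring them clients and with HSP110 proteins that release their nucleotide, and HSP90 takes over clients such as kinases and steroid receptors. The endoplasmic reticulum and the mitochondrion hold their own chaperones. Heat, oxidants, protein damage and the handling of cells activate the heat shock factor HSF1, which binds repeats of the unit GAA in alternating orientation and induces part of this set strongly, while other members are made all the time. Granule cell precursors, the cells that the labels name for the primary tumours, divide fast and make much protein.

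Of the 10 genes, 4 form pairs of neighbours. In GRCm38 with GENCODE M21, Hspa1a (chr17:34969190-34972156) and Hspa1b (chr17:34956436-34959238) are both single-exon genes on the minus strand. Hspd1 (chr1:55077835-55088243, minus strand) and Hspe1 (chr1:55088132-55091307, plus strand) run away from each other from a common promoter, and their annotated exons overlap by 112 bases. Of the 10 genes, 8 had a RefSeq promoter window of 300 bases (GRCm38.p6, 250 before to 50 after the start of a transcript). The bases before the start are printed 5′ to 3′ on each gene's own strand for 5 of them: for the near-identical pair Hspa1a and Hspa1b, for Hspb1 and Hspe1, which hold more than 1 match before the start, and for Hspa5, whose match is to another element. Hspd1, not printed, also holds more than 1 match before the start in 1 of its windows, in the stretch it shares with Hspe1. Capitals in the first 4 mark every match to GAANNTTC or TTCNNGAA, which are pairs of heat shock units and read the same on both strands. Capitals in Hspa5 mark the ER stress element, the motif named for genes of the unfolded protein response.
Hspa1a, chr17:34972157-34972406, minus strand: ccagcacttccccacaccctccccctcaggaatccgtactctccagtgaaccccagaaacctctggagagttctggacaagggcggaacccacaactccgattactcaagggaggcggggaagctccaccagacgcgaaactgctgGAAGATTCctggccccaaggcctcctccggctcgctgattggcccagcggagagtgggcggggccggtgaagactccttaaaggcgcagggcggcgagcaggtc
Hspa1b, chr17:34959239-34959488, minus strand: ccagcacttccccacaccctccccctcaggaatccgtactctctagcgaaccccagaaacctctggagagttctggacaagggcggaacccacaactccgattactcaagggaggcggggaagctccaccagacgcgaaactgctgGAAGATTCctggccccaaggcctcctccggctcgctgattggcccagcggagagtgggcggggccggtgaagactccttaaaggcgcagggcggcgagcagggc
Hspb1, chr5:135887669-135887918, plus strand: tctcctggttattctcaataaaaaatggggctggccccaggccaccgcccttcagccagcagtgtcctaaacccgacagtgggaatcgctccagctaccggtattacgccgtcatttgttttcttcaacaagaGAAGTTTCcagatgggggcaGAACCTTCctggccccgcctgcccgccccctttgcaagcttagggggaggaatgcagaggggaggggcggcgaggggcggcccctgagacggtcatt
Hspe1, chr1:55087898-55088147, plus strand: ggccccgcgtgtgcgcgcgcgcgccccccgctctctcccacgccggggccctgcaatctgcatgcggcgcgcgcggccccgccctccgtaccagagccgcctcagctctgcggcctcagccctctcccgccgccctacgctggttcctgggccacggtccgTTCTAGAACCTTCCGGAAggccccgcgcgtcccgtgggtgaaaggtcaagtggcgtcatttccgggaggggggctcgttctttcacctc
Hspa5, chr2:34771840-34772089, plus strand: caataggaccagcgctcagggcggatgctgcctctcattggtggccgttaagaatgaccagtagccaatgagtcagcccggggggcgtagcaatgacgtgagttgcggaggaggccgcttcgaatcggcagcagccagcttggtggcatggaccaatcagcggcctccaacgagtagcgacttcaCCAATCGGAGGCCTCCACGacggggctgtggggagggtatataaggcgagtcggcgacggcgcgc

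Windows with GAANNTTC or TTCNNGAA were found for 6 of the 8 genes (Hspa1a, Hspa1b, Hsph1, Hspb1, Hspd1 and Hspe1), and 15.1% of all 32817 promoter windows held one. Windows with 3 alternating units in a row were found for Hsph1, Hspd1 and Hspe1, against 0.603% of all windows. Those of Hspd1 and Hspe1 are the same stretch, since 1 window of Hspd1 shares 285 bases with that of Hspe1. The other window of Hspd1, with another start, shares 4 bases with it and holds neither 8-base motif. In Hspe1 the matches begin 89, 84 and 79 bases before the start and overlap one another. In Hsph1, in the window with the start farther upstream, 1 match begins 33 bases before the start, and 2 overlapping matches begin after it, at bases 37 and 42. Hspa1a and Hspa1b each held 1 match, which begins 104 bases before the start, and their printed stretches were identical at 247 of 250 bases. Hspb1 held 2 matches, which begin 117 and 97 bases before the start. The windows of Dnajb1 and Hspa5 had neither 8-base motif, and Hspa5 held the ER stress element, found in 0.119% of all windows. These are matches of letters in a fixed window, and binding was not measured.

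Library totals ranged from 23545383 to 41412288 counts, so that 1 count was worth 0.0260 to 0.0380 CPM, where CPM is the count in a library scaled to 1000000 counts, after adjustment by the trimmed mean of M values (TMM). Summed markers of granule cell precursors (10 genes) stood at 4344 to 6401 CPM in KO metastases, 4387 to 5063 CPM in KO primary tumours and 3308 to 4328 CPM in control primary tumours. Kmt2d itself averaged 115 ± 11.2 CPM in KO metastases, 116 ± 35.7 CPM in KO primary tumours and 125 ± 36.7 CPM in control primary tumours (SD), and counts over the whole gene do not check a deletion of part of it. Some libraries stood apart. Counts of olfactory and vomeronasal receptor genes, which these cells are not known to use, summed to more than 100 CPM in 4 libraries: KO metastases 6 and 7 (544 and 332 CPM), KO primary 7 (696 CPM) and control primary 3 (1679 CPM). KO primary 6, at 81.3 CPM, lay below that level but above the remaining libraries (5.59 to 16.6 CPM). KO metastasis 3 had 2.06% of its counts on mitochondrial genes, against 0.633% to 0.876% in the other 12 libraries. Xist exceeded 100 CPM in 3 libraries, all control primary tumours (replicates 5, 6 and 7), so sex and genotype are partly confounded. In bulk RNA, fewer cells of a type and less RNA per cell cannot be told apart.

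None of the 10 genes differed between groups at an adjusted p below 0.05 (edgeR quasi-likelihood test, Benjamini-Hochberg over all genes tested) in any of the 3 comparisons. In KO primary against control primary tumours, 0 of 10 were called, where 2.93% of all genes tested were called, and the smallest adjusted p among the 10 was 0.311, for Dnajb1. Against the same controls, 0 of 10 were called in KO metastases, beside 3.08% of all genes, and the smallest adjusted p was 0.266, for Hspb1. In KO metastases against KO primary tumours, 0 of 10 were called, against 0.00449% of all genes (1 gene). At an unadjusted p below 0.05 the same test had 1, 2 and 2 of the 10 genes in these comparisons, against 13.6%, 14.2% and 3.23% of all genes. DESeq2 called none of the 10 in any comparison, while limma voom with quality weights called 1, 2 and 0, named below. The median log2 change of the 10 genes was 0.18, 0.29 and 0.099, where the median over all genes tested was -0.053, -0.039 and -0.0038. Values were positive for 6, 7 and 7 of the 10 genes, and 45.6%, 46.6% and 49.6% of all genes were positive. The ranges of the groups did not overlap for 1 gene (Dnajb1) in KO primary against control primary tumours, for 1 gene (Hspb1) in KO metastases against control primary tumours and for 0 genes between the KO groups. Among all genes tested, 7.42%, 6.82% and 1.72% had ranges that did not overlap, so a count of 1 or 0 in 10 lies near the background. The 2 comparisons with control primary tumours share those 5 libraries.

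**Figure D1:**
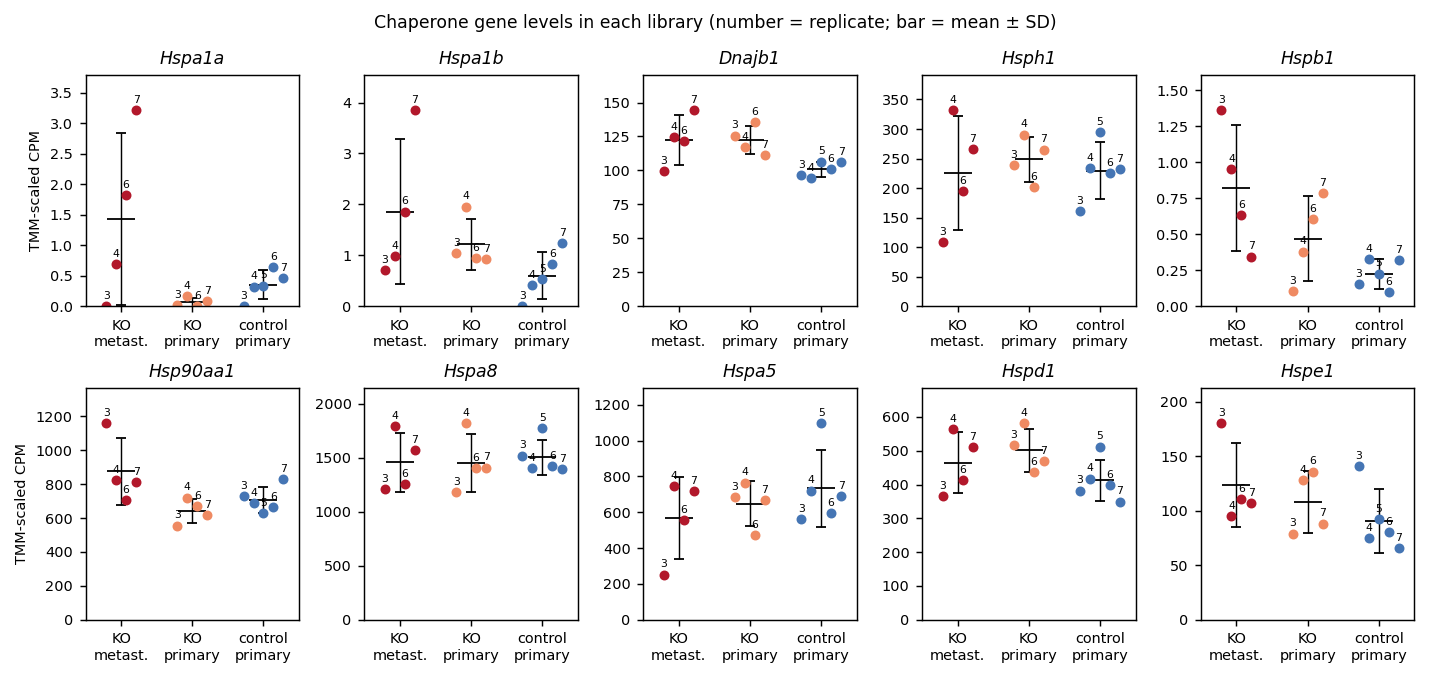
TMM-scaled CPM of each of the 10 chaperone genes in every library, with the replicate number beside each point and the mean ± SD of the group as bars (4, 4 and 5 libraries). The groups do not overlap for Dnajb1 between KO primary and control primary tumours or for Hspb1 between KO metastases and control primary tumours, and KO metastasis 3 is at an end of the range for Hsph1, Hspa5, Hsp90aa1, Hspe1 and Hspb1.

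Set per kilobase of annotated exon, Hspa8 was highest on average, with a mean of 343 CPM per kb over the 13 libraries and a range of 275 to 424. The next gene, Hsp90aa1, reached 295 CPM per kb in KO metastasis 3, within that range, and exceeded Hspa8 in that library. Hsp90aa1 (188 CPM per kb), Hspd1 (172 CPM per kb) and Hspa5 (155 CPM per kb) followed, and their ranges over libraries overlapped. Hspe1 averaged 72.0 CPM per kb and exceeded Hspa5 in KO metastasis 3, where Hspa5 had 59.6 CPM per kb and Hspe1 122 CPM per kb. Dnajb1 (35.6 CPM per kb) and Hsph1 (32.3 CPM per kb) overlapped on this scale. The length used was that of all annotated exons merged, 7266 bases for Hsph1, 3204 for Dnajb1 and 4301 for Hspa8. Their longest coding transcripts have 3802, 2996 and 2394 bases, so the order and the overlaps depend on the length chosen. Hspb1 (0.470 CPM per kb), Hspa1b (0.420 CPM per kb) and Hspa1a (0.202 CPM per kb) were far below and overlapped one another. These 3, all of them induced by heat, had at most 134 counts in any library.

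Hspa1a and Hspa1b encode the inducible HSP70, which is made in most cells mainly under stress. Hspa1a had 0, 26, 52 and 112 counts in KO metastases 3, 4, 6 and 7, against 1, 6, 0 and 3 counts in KO primary tumours 3, 4, 6 and 7. It had 0, 11, 9, 20 and 17 counts in control primary tumours 3 to 7. On the CPM scale, KO metastasis 7 was highest at 3.22 CPM, followed by KO metastasis 6 at 1.83 CPM and KO metastasis 4 at 0.690 CPM, and the highest of the other 10 libraries was control primary 6 at 0.644 CPM. KO metastasis 3 lay at 0, so the groups overlapped. Hspa1b had 20, 37, 53 and 134 counts in KO metastases, against 40, 72, 36 and 34 counts in KO primary tumours. In control primary tumours it had 0, 14, 14, 26 and 46 counts. Control primary 3 had no count of either gene, which allows up to 0.114 CPM of each (3 counts, counting error only).

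The split of reads between the 2 genes differed between libraries. Hspa1a took 112 of the 246 counts of the pair in KO metastasis 7, a share of 45.5% (exact 95% interval 39.2% to 52.0%), and 0 of 20 in KO metastasis 3 (0% to 16.8%). The highest share in KO primary tumours was 8.11% (1.70% to 21.9%), in replicate 7. The lowest share in the 4 control primary tumours with a count was 27.0% (16.6% to 39.7%), in replicate 7, and the highest was 44.0%. All 4 KO primary tumours thus lay below those 4 control libraries. The pair is hard to separate: of 50-base windows of the Hspa1a transcript, 58.8% occur in Hspa1b too and 33.7% in no other annotated gene, and Gm20481 overlaps Hspa1a by 564 bases on the other strand. Neither the read length nor the treatment of reads that match several genes is stated in the labels, so the sum of both genes is the firmer value.

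The sum of Hspa1a and Hspa1b was 0.718, 1.67, 3.69 and 7.08 CPM in KO metastases 3, 4, 6 and 7, against 1.07, 2.12, 0.952 and 1.00 CPM in KO primary tumours 3, 4, 6 and 7. Control primary tumours 3 to 7 had 0, 0.741, 0.874, 1.48 and 1.70 CPM. KO metastases 7 and 6 were the highest libraries, and all 3 groups overlapped. The log2 change of the sum was 1.77 (SE 0.853, 95% interval -0.062 to 3.60, adjusted p = 0.377, edgeR) in KO metastases against control primary tumours, 1.35 (SE 0.905, adjusted p = 0.9997) in KO metastases against KO primary tumours and 0.42 (SE 0.848, adjusted p = 0.956) in KO primary against control primary tumours. The 2 highest libraries are also the 2 KO metastases above 100 CPM of receptor genes. Without the 4 libraries above that level the log2 change was 0.017 in KO metastases against control primary tumours (adjusted p = 0.991) and -0.20 against KO primary tumours (adjusted p = 0.927). That fit drops the 2 highest metastases, the lowest control and KO primary 7, and keeps only KO metastases 3 and 4 in their group. It therefore cannot separate receptor counts from the loss of the highest libraries. The library with the most receptor counts, control primary 3, had no count of the pair. KO metastases 6 and 7 also held the most counts of 9 oligodendrocyte markers (1944 and 827 CPM in sum, against 69.0 to 404 CPM in the other 11 libraries) and of 10 markers of microglia and macrophages (193 and 151 CPM, against 3.36 to 69.3 CPM). Opalin, an oligodendrocyte marker, had no count in the 4 KO primary tumours. The part of these cells in the Hspa1 counts was not tested. Taken singly, Hspa1a had a log2 change of 4.34 in KO metastases against KO primary tumours (SE 1.57, 95% interval 0.96 to 7.72, adjusted p = 0.9997), which was 3.56 without KO metastasis 7 and 2.43 without the 4 libraries above 100 CPM of receptor genes. limma voom called Hspa1b in KO metastases against control primary tumours (log2 change 1.90, adjusted p = 0.0382).

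**Figure D2:**
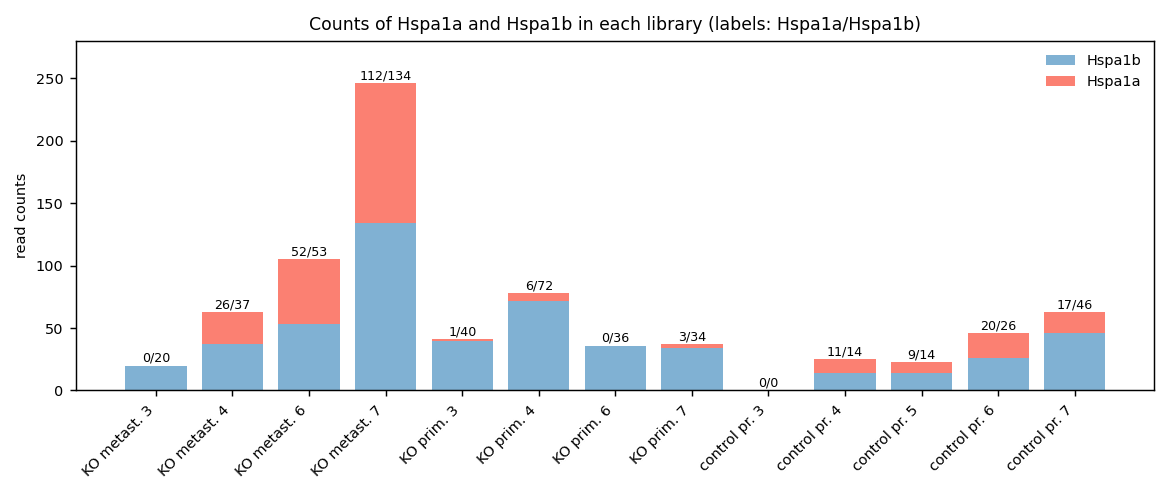
Deposited read counts of Hspa1b (blue) and Hspa1a (red, stacked on top) in each of the 13 libraries, with both counts written above each bar. KO metastases 7 and 6 reach 246 and 105 counts, KO primary tumours hold at most 6 counts of Hspa1a, and control primary 3 holds none of either gene.

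Dnajb1 encodes the main stress-inducible J-domain partner of cytosolic HSP70. It had 99.5, 124, 121 and 145 CPM in KO metastases 3, 4, 6 and 7 and 126, 117, 136 and 111 CPM in KO primary tumours 3, 4, 6 and 7. Control primary tumours 3 to 7 had 96.5, 94.3, 106, 101 and 106 CPM. Every KO primary tumour lay above every control primary tumour, and KO metastasis 3 lay within the control range. The log2 change was 0.28 (SE 0.120, 95% interval 0.021 to 0.54, adjusted p = 0.311, edgeR) in KO primary against control primary tumours. The KO metastases gave 0.28 against the same controls (SE 0.120, adjusted p = 0.297), and limma voom called that difference (log2 change 0.38, adjusted p = 0.0264). Between the KO groups the means were 122 ± 18.5 CPM in metastases and 122 ± 10.6 CPM in primary tumours (SD), and the 95% interval of the log2 change ran from -0.27 to 0.27.

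Hsph1 encodes an HSP110 protein that acts as a nucleotide exchange factor for HSP70. It had 109, 332, 195 and 265 CPM in KO metastases, 238, 290, 202 and 265 CPM in KO primary tumours and 161, 234, 295, 225 and 233 CPM in control primary tumours. KO metastasis 3 was the lowest of the 13 libraries and KO metastasis 4 the highest, 3.06-fold apart, so the spread within that group spanned both others. Its log2 change was 0.12 (SE 0.261, adjusted p = 0.961) in KO primary against control primary tumours and -0.028 (SE 0.261, adjusted p = 0.988) in KO metastases against control primary tumours. Without KO metastasis 3 the second value was 0.20.

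Hspb1 encodes HSP27, a small heat shock protein that holds unfolded proteins without using ATP. It had 38, 36, 18 and 12 counts in KO metastases 3, 4, 6 and 7 and 4, 14, 23 and 29 counts in KO primary tumours. Control primary tumours 3 to 7 had 4, 11, 6, 3 and 12 counts. As levels these are 1.36, 0.955, 0.632 and 0.345 CPM in KO metastases, 0.104, 0.381, 0.608 and 0.786 CPM in KO primary tumours and 0.152, 0.326, 0.228, 0.0966 and 0.323 CPM in control primary tumours. All 4 KO metastases exceeded the 5 control primary tumours, by a narrow margin in replicate 7. The log2 change in that comparison was 1.85 (SE 0.755, 95% interval 0.23 to 3.47, adjusted p = 0.266, edgeR), and it was 1.49 without KO metastasis 3. In KO primary against control primary tumours it was 1.05 (SE 0.747, adjusted p = 0.664), and the groups overlapped. Annotated copies share sequence with this gene too: 48.4% of its 50-base windows occur in no other annotated gene.

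Hsp90aa1 encodes the inducible HSP90-alpha, which matures signalling proteins in the cytosol. It had 1160, 823, 707 and 812 CPM in KO metastases 3, 4, 6 and 7, against 556, 720, 669 and 615 CPM in KO primary tumours 3, 4, 6 and 7. Control primary tumours 3 to 7 had 730, 689, 628, 662 and 831 CPM. KO metastasis 3 was the highest of all libraries, and KO metastasis 6 lay below KO primary 4, so the KO groups overlapped. The log2 change was 0.45 (SE 0.155, 95% interval 0.12 to 0.79, adjusted p = 0.9997, edgeR) in KO metastases against KO primary tumours, and 0.33 without KO metastasis 3. Against control primary tumours it was 0.31 in KO metastases (SE 0.146, adjusted p = 0.371), which became 0.15 without KO metastasis 3, and -0.15 in KO primary tumours (SE 0.147, adjusted p = 0.841).

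Hspa8 encodes HSC70, the HSP70 that cells make without stress, and it was the most abundant of the 10. It had 1213, 1794, 1254 and 1572 CPM in KO metastases, 1182, 1822, 1403 and 1410 CPM in KO primary tumours and 1521, 1404, 1775, 1422 and 1400 CPM in control primary tumours. The groups covered the same range, and the 13 libraries lay within 1.54-fold of each other. The 95% interval of the log2 change was -0.37 to 0.27 in KO primary against control primary tumours, -0.37 to 0.28 in KO metastases against control primary tumours and -0.34 to 0.35 between the KO groups. As folds, those bounds were 0.772 to 1.21, 0.774 to 1.21 and 0.792 to 1.27. Of its 50-base windows, 25.2% occur in no other annotated gene, since many processed copies exist, and 3 small nucleolar RNA genes lie inside the gene, so its level depends on the counting of shared reads.

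Hspa5 encodes BiP, the HSP70 of the endoplasmic reticulum and a target of the unfolded protein response. It had 252, 746, 556 and 718 CPM in KO metastases 3, 4, 6 and 7, 683, 766, 470 and 670 CPM in KO primary tumours and 562, 720, 1097, 595 and 690 CPM in control primary tumours. KO metastasis 3 was lowest and control primary 5 highest, 4.36-fold apart, and the groups overlapped. The log2 change was -0.37 (SE 0.284, adjusted p = 0.686) in KO metastases against control primary tumours, which became -0.13 without KO metastasis 3, and -0.18 (SE 0.283, adjusted p = 0.937) in KO primary against control primary tumours. Between the KO groups it was -0.19 (SE 0.298, adjusted p = 0.9997), and 0.10 without KO metastasis 3. In KO metastasis 3, then, the lowest Hspa5 and Hsph1 stood beside the highest Hsp90aa1, Hspe1 and Hspb1, in the library with the highest mitochondrial share.

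Hspd1 and Hspe1 encode HSP60 and HSP10, the barrel and the lid of the mitochondrial chaperonin. Hspd1 had 366, 564, 414 and 511 CPM in KO metastases, 517, 582, 437 and 469 CPM in KO primary tumours and 382, 417, 512, 399 and 349 CPM in control primary tumours. Its log2 change was 0.28 (SE 0.152, 95% interval -0.046 to 0.61, adjusted p = 0.477) in KO primary against control primary tumours, where control primary 5 alone lay within the range of the KO primary tumours and the other 4 controls lay below it. Hspe1 had 180, 95.1, 111 and 107 CPM in KO metastases, 79.1, 128, 136 and 88.2 CPM in KO primary tumours and 141, 75.1, 92.2, 80.1 and 66.0 CPM in control primary tumours. KO metastasis 3 and control primary 3 were its highest libraries. The log2 change of Hspe1 was 0.25 (SE 0.253, adjusted p = 0.843, edgeR) in KO primary against control primary tumours, where limma voom, which gives outlying libraries less weight, called it at 0.53 (adjusted p = 0.0407). For KO metastases against control primary tumours it was 0.44 (SE 0.253, adjusted p = 0.497), and 0.22 without KO metastasis 3.

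Although the 2 genes share a promoter, their levels did not move together across libraries. Pearson's r between Hspd1 and Hspe1 was -0.049 over the 13 libraries, on the scale of log2(CPM + 1), as a description. The ratio of Hspd1 to Hspe1 was 2.03, 5.93, 3.74 and 4.77 in KO metastases 3, 4, 6 and 7, against 6.53, 4.54, 3.21 and 5.32 in KO primary tumours. In control primary tumours 3 to 7 it was 2.72, 5.55, 5.56, 4.99 and 5.29. Both KO metastasis 3 and control primary 3 had ratios below 3. Of the 50-base windows, 55.2% occur in no other annotated gene for each, and copies such as Hspd1-ps3 were counted at 1.51 to 4.64 CPM.

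**Figure D3:**
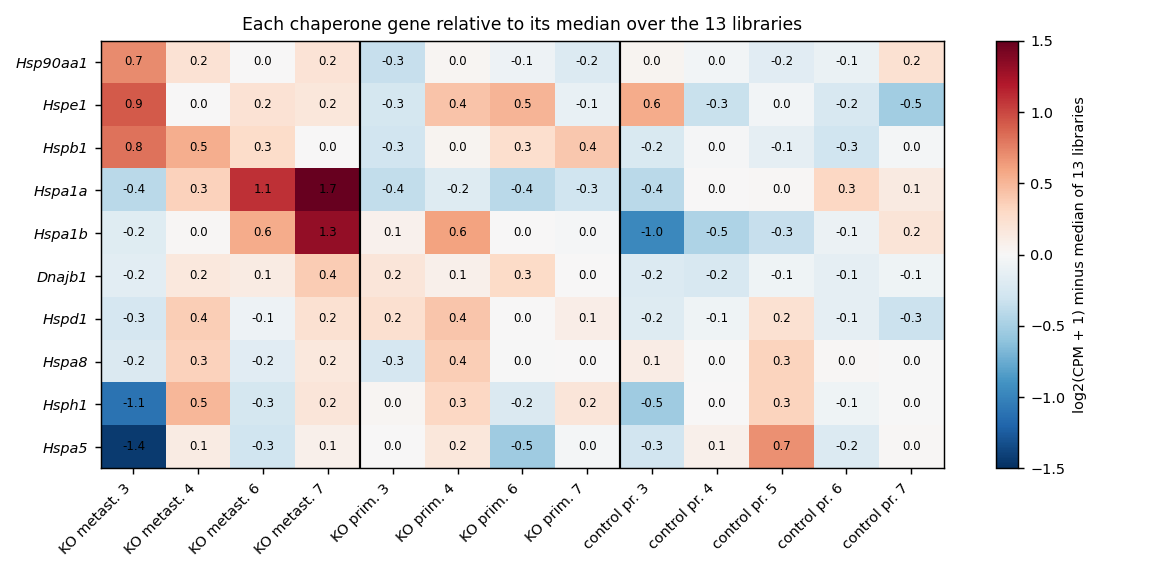
Level of each chaperone gene in each library as log2(CPM + 1) minus the median of that gene over the 13 libraries (red higher, blue lower). KO metastasis 3 has Hspa5 and Hsph1 far below and Hsp90aa1, Hspe1 and Hspb1 above their medians. Hspa1a is highest in KO metastases 7 and 6, and Hspa1b is highest in KO metastasis 7, followed by KO primary 4.

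Across all 13 libraries Hspa5 and Hsph1 had Pearson's r = 0.90 and Spearman's rho = 0.90, the highest r among these genes with Hspa1a and Hspa1b taken as their sum, and r = 0.76 without the 2 libraries farthest from the median of Hsph1. Hsph1 with Hspd1 had r = 0.74 over all libraries and 0.74 without 2. Hsph1 with Hspa8 had r = 0.65 over all libraries and 0.81 without 2, the highest value on that measure. These are correlations over 3 groups of libraries that share a scaling, given as a description. Among 9453 genes with a mean of at least 10 CPM, the 5 most like Hspa5 were Tmco3 (r = 0.94), St7l (0.91), Gnaz (0.91), Agk (0.90) and Hsph1 (0.90). Without the 2 libraries farthest from the median of Hspa5 these were 0.74 for Tmco3, 0.87 for St7l, 0.64 for Gnaz, 0.56 for Agk and 0.78 for Hsph1. The 5 most like Hspd1 were Ryk (r = 0.94), Kdelc1 (0.92), Abcf3 (0.92), Rexo4 (0.91) and Nop2 (0.89), and without the 2 farthest libraries they stood at 0.82 to 0.93. For the sum of Hspa1a and Hspa1b, among 9454 genes, they were Elf1 (r = 0.84), Anxa5 (0.81), Man2b1 (0.76), Gsn (0.76) and Myb (0.76), and without the 2 farthest libraries Gsn stood at 0.24 and the other 4 at 0.73 to 0.87.

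**Figure D4:**
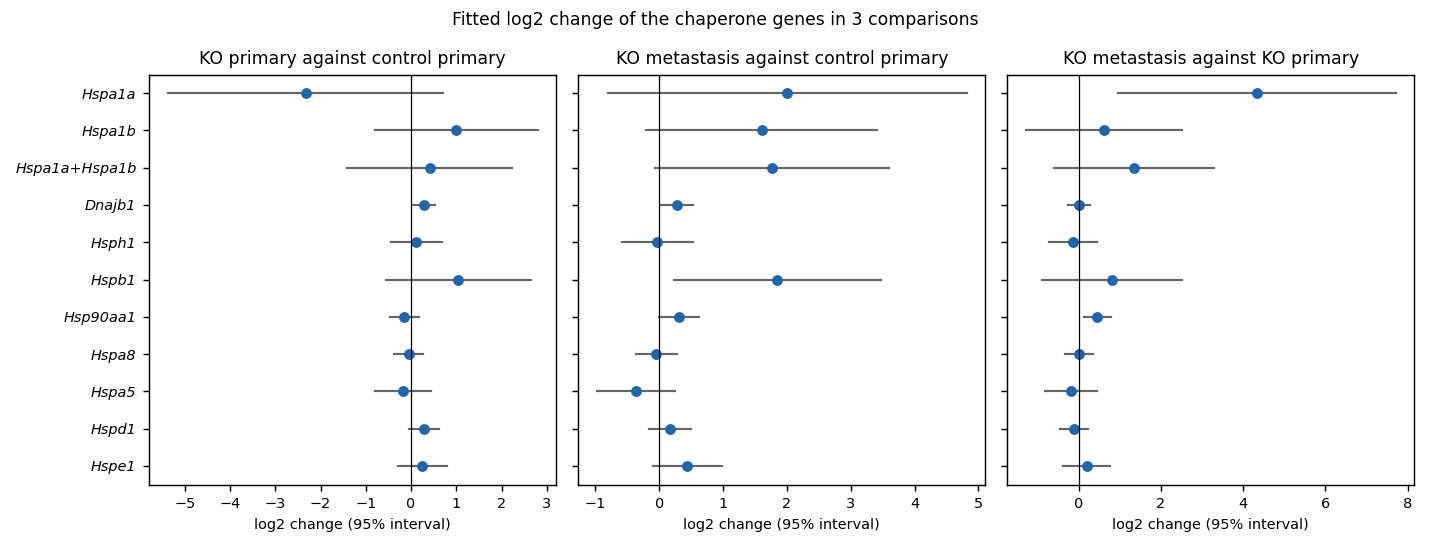
Fitted log2 change with its 95% interval for each chaperone gene and for the sum of Hspa1a and Hspa1b in the 3 comparisons (edgeR quasi-likelihood fit over 13 libraries, first-named group over the other, separate axis ranges). The intervals of Hspa1a, Hspa1b and Hspb1 are wide, and those of Dnajb1, Hspa8, Hsp90aa1 and Hspd1 are narrow.

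Lists of other chaperone genes were read in the same fit. In KO primary against control primary tumours, 0 genes were called among 5 heat shock factor genes (median log2 change -0.36), counting Hsbp1, which encodes a binding protein of these factors. Hsf1 itself had a log2 change of 0.080 (SE 0.218, adjusted p = 0.968, edgeR). None was called either among 10 other HSP70 and HSP110 genes (median log2 change 0.21), 18 HSP90 genes and co-chaperones (0.12), 4 small heat shock proteins (-0.70), 15 CCT chaperonin and prefoldin subunits (0.13), 22 endoplasmic reticulum chaperones and unfolded protein response genes (-0.12), 14 mitochondrial chaperones and proteases (0.15) and 18 other HSF1 target genes (0.025). Of 14 J-domain co-chaperones, 1 was lower, Dnajb5, a partner of HSP70 related to Dnajb1. Among all genes tested, 2.93% were called in this comparison. The genes of smallest p in the lists without a call were Hsf2, a heat shock factor (log2 change -0.36), Hspa4l, an HSP110 gene (-0.38), Bag2, an HSP70 co-chaperone (0.60, adjusted p = 0.0841), Cryab, the small heat shock protein alpha-B crystallin (adjusted p = 0.0667), Cct3 of the cytosolic chaperonin (0.25), Xbp1, a transcription factor of the unfolded protein response (-0.31), Trap1, the mitochondrial HSP90 (0.29), and Dnajb4, a J-domain gene (0.50, adjusted p = 0.0606). The adjusted p values not given lay between 0.271 and 0.429 (edgeR).

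Dnajb5 had 40.6, 43.6, 32.0 and 45.3 CPM in KO metastases 3, 4, 6 and 7, 35.5, 39.9, 34.5 and 36.4 CPM in KO primary tumours and 53.7, 73.0, 54.1, 70.3 and 58.6 CPM in control primary tumours. Both KO groups lay below all 5 control primary tumours. Summed markers of differentiating granule neurons (10 genes) separated the groups in the same direction, at 944 to 1678 CPM in KO metastases, 863 to 1014 CPM in KO primary tumours and 1910 to 3148 CPM in control primary tumours, and their part in the Dnajb5 values was not tested. The log2 change was -0.76 (SE 0.142, adjusted p = 0.0100, edgeR) in KO primary against control primary tumours, and it was -0.73 (adjusted p = 0.0540) without KO primary 6 and -0.76 (adjusted p = 0.311) without the 3 control libraries with Xist counts. In KO metastases against control primary tumours it was -0.62 (SE 0.142, adjusted p = 0.0303), and the call held in 1 of the 13 fits that left out a library, the one without control primary 3, with adjusted p values up to 0.171 in the others (without KO metastasis 6). Cryab stood at 2.55, 0.663, 22.7 and 6.85 CPM in KO metastases, 0.443, 1.14, 1.96 and 1.35 CPM in KO primary tumours and 15.7, 12.1, 8.59, 5.18 and 7.51 CPM in control primary tumours, and KO metastasis 6, its highest library, also had the most oligodendrocyte marker counts.

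In KO metastases against control primary tumours, Dnajb5 was again the 1 called gene of the 14 J-domain co-chaperones, and 0 genes were called in the 8 other chaperone lists. Among all genes tested, 3.08% were called there. Bag3, a co-chaperone of HSP70 and HSF1 target, had 26.0, 33.2, 17.9 and 16.3 CPM in KO metastases, against 6.73, 11.05, 12.3, 14.1 and 13.6 CPM in control primary tumours, a log2 change of 1.01 (SE 0.264, adjusted p = 0.0551). KO primary tumours 3, 4, 6 and 7 had 27.2, 24.7, 21.2 and 14.8 CPM of Bag3 and also lay above every control. Their log2 change against control primary tumours was 0.93 (SE 0.264, adjusted p = 0.0844, edgeR). The genes of smallest p in the other lists were Hsf2 (-0.15), Hspa4l (-0.29), Hspb8, a small heat shock protein (1.36, -0.39 without KO metastasis 3), Pfdn6 of prefoldin (0.48), Dnajb9, a J-domain protein of the endoplasmic reticulum (0.48), and Clpp, a mitochondrial protease (0.21), with adjusted p values of 0.135 or more. The list medians were -0.11 for heat shock factor genes with Hsbp1, -0.023 for other HSP70 and HSP110 genes, 0.14 for HSP90 genes and co-chaperones, -0.11 for small heat shock proteins, 0.076 for CCT and prefoldin, -0.16 for endoplasmic reticulum genes, 0.045 for mitochondrial genes and 0.056 for other HSF1 targets.

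Between the KO groups 0 genes were called in every chaperone list, where 0.00449% of all genes tested were called. The genes of smallest p were Hsf5 (log2 change 0.84), Hspa9, the mitochondrial HSP70 (-0.37), Dnajc21 (0.32), Bag2 (-0.27), Hspb8 (2.60, 0.88 without KO metastasis 3), Pfdn4 (0.26) and Dnajb9 (0.21), all at an adjusted p of 0.9997 (edgeR). Hspb8 had 33.2 CPM in KO metastasis 3 and 1.25 to 4.71 CPM in the other KO metastases, against 1.03 to 2.03 CPM in KO primary tumours.

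Immediate early genes are switched on within minutes of a stimulus and during dissociation. Of 18 such genes, 10 were higher and 0 lower in KO metastases against control primary tumours, where 3.08% of all genes tested were called. Summed markers of oligodendrocytes had a median of 571 CPM in KO metastases and 209.6 CPM in control primary tumours, and those of microglia and macrophages 94.0 CPM in KO metastases and 26.6 CPM in control primary tumours. By library, the 18 immediate early genes summed to 3844, 3444, 4003 and 2876 CPM in KO metastases 3, 4, 6 and 7. KO primary tumours 3, 4, 6 and 7 had 2412, 1882.5, 3122 and 1118 CPM, and KO primary 6 thus exceeded KO metastasis 7. The highest sum in control primary tumours was 1924 CPM, below KO primary 3 and 6. KO metastases 3 and 4 had 173 and 316 CPM of oligodendrocyte markers and 37.0 and 11.4 CPM of microglia and macrophage markers, within the control ranges. The part of these cells in the immediate early counts was not tested. Egr1 averaged 1174 ± 150.1 CPM in KO metastases and 240.2 ± 142 CPM in control primary tumours (SD, log2 change 2.29, adjusted p = 0.0104). Fos averaged 314 ± 67.6 CPM in KO metastases and 33.0 ± 23.5 CPM in control primary tumours (SD, log2 change 3.26, adjusted p = 0.00616). Klf6 (0.97, adjusted p = 0.00371) and Egr2 (1.84, adjusted p = 0.0104) were the other genes named by smallest p. All 4 are transcription factors. The count was 5 without KO metastasis 3, 6 without control primary 6 and 3 without the 3 control libraries with Xist counts. In that last fit the log2 changes were 1.17 for Klf6, 3.56 for Fos, 2.70 for Egr1 and 2.06 for Egr2, as large as with all libraries, at adjusted p values of 0.0973 to 0.186. In KO primary against control primary tumours, where 2.93% of all genes were called, 1 of the 18 was higher (Egr3, log2 change 4.10, adjusted p = 0.0160) and 1 lower (Btg2, -1.05, adjusted p = 0.0196). Egr3 lost its call without KO primary 3 (adjusted p = 0.0528), and Btg2 without KO primary 3, KO primary 6, control primary 5 or control primary 7 (adjusted p = 0.0751, 0.0512, 0.0509 and 0.0589). Btg2 was also not called with the replicate number as a block (log2 change -0.97, adjusted p = 0.0699), without the controls with Xist counts (-0.74, adjusted p = 0.545) or with the Xist level as a covariate (-0.76, adjusted p = 0.259). Between the KO groups none of the 18 was called, and the smallest p was that of Jund (0.82, adjusted p = 0.9997). Whether a difference in handling lies behind these values was not tested.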

How the data were processed

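RNA was sequenced from papain-dissociated, GFP-sorted tumour cells with TruSeq libraries, per the labels' protocols. The values are whole read counts per gene symbol, deposited by the authors as 1 table of the 13 libraries. STAR 2.4, HTSeq 0.6.1, DESeq2 and the build mm10 are named without roles, per the submitters' processing notes. Neither strand setting nor read length is stated in the labels. Library totals were 23545383 to 41412288 counts. Counts were fitted with edgeR 4.0.16 (R 4.3.3) by the quasi-likelihood test over all 13 libraries with group as the one term, after filterByExpr (minimum count 10, minimum total 15) and TMM scaling, with Benjamini-Hochberg adjustment over 22265 genes and a call at an adjusted p below 0.05. Standard errors were taken from the log2 change and its F value. Alternatives were DESeq2 1.42.0, limma 3.58.1 voom with quality weights, other scaling and filtering, covariates and leaving out libraries. The test was checked on simulated counts. Coordinates are from GENCODE M21 (GRCm38), and promoter sequences and motif shares from RefSeq (GRCm38.p6). A promoter match was sought on both strands. The members, the gene lists and the tests were chosen with earlier results of these data known. All 10 genes are named. From each list the called genes are named, up to 4 by smallest p, or otherwise the gene of smallest p, and for 3 anchors the 5 genes of highest Pearson's r, leaving out predicted genes. Cryab, Bag3, Dnajb5 and Hspb8 are also given by library. Intervals on counts cover counting error only.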

Additional observations from a re-analysis of the deposited data

Results flagged for a closer look

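Of 30 sets of libraries tested (10 genes in 3 groups), 1 had a library far from the others of its group, where chance flags about 1 in 20. Hspa1b stood at 1.96 CPM in KO primary 4, against 0.921 to 1.04 CPM in the other 3 KO primary tumours. The gap to the nearest library was 0.884 of the range of the group, above the 95% critical value of Dixon's test for 4 libraries.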

How the results depend on the processing

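Scaling, filter, test, block, covariates, the libraries kept and the summing of the pair were varied over 24 settings besides the reported one, 13 of which left out a library. The gene lists, the 100 CPM levels, the exon lengths and the promoter windows were not varied. For the 33 values of the 10 genes and the summed pair, 733 of 782 alternative values kept direction and side of the threshold, 45 changed sign without being called and 4 became called. None of the 33 was called in the reported fit, so no call could be lost. The number of genes called in KO primary against control primary tumours was 653 and became 1630 with DESeq2, 3267 with limma voom, 1427 without the libraries above 100 receptor CPM, 138 without the controls with Xist counts, 1115 and 261 with the receptor and the Xist level as covariate, and 277 to 1032 with a library left out. For KO metastases against control primary tumours it was 685 and became 1675, 3822, 1274, 100, 1117 and 262 under the same settings, and 369 to 1199 with a library left out. For KO metastases against KO primary tumours it was 1 and became 34 with DESeq2, 2 with limma voom or no filter, 5 without the receptor libraries, 0 without the controls with Xist counts, with the receptor covariate or with the 2 groups alone, and 0 to 2 with a library left out. limma voom called 1 of the 10 genes (Hspe1) in KO primary and 2 (Hspa1b and Dnajb1) in KO metastases against control primary tumours, and raised the summed Hspa1a and Hspa1b change there to 2.06 (adjusted p = 0.0341).

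Samples with the same replicate number correlated at 0.115, 0.341, 0.0637 and 0.532 between KO metastases and KO primary tumours. Samples with different numbers correlated at -0.473 to 0.476. The same-number values were all positive, but not every pair exceeded 0.1. The labels do not say whether equal numbers mark the same animal, and the numbers were not taken as pairs. The replicate block used the number over all 3 groups, controls of another genotype included, so it is not a pairing of metastasis with primary tumour. With the replicate block 672, 639 and 0 genes were called in the 3 comparisons, and 0 of the 10 genes.

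Log2 changes of uncalled genes that changed sign were as follows, and the cause was not tested. In KO primary against control primary tumours, Hsph1 was -0.0056 without the receptor libraries, Hspa8 0.031 with limma voom, 0.052 without the Xist controls, 0.015 with the Xist covariate and -0.17 to 0.024 with a library left out. Hspa5 was 0.018 with the replicate block, 0.049 without the Xist controls and 0.062 with the Xist covariate, which gave Hspe1 -0.021. In KO metastases against control primary tumours, Hspa1a was -0.31 without the receptor libraries. Hsph1 was 0.0046 with the replicate block, 0.25 without the Xist controls, 0.0100 and 0.22 with the receptor and Xist covariates and -0.26 to 0.20 with a library left out. Hspa8 was 0.019 without the receptor libraries, 0.088 without the Xist controls, 0.018 with the Xist covariate and -0.15 to 0.048 with a library left out. Hsf2 was 0.025 without the Xist controls, Clpp -0.016 with the Xist covariate and Hspb8 -0.39 to 1.73 with a library left out. In KO metastases against KO primary tumours, the libraries without high receptor counts gave -0.63 for Hspa1b, -0.20 for the summed pair and -0.17 for Dnajb1. Dnajb1 was -0.0073 with the replicate block, -0.0021 with the receptor and -0.00063 with the Xist covariate, and limma voom gave -0.057 for Hspa8 and -0.038 for Hspe1. With a library left out there, the ranges were -0.044 to 0.93 for Hspa1b, -0.093 to 0.13 for Dnajb1, -0.36 to 0.13 for Hsph1, -0.084 to 0.13 for Hspa8, -0.32 to 0.10 for Hspa5, -0.19 to 0.030 for Hspd1 and -0.010 to 0.32 for Hspe1. Depth limits Hspa1a, Hspa1b and Hspb1, with 10 to 244 counts per group.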
